A study of Mus musculus with 45 samples.

Results

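The genes described here are 33 genes of glycolysis and of the hypoxia response, chosen by symbol from the gene table of a bulk RNA-seq study of mouse lymphocytes. They matched 34 of its 55450 rows, because Aldoa has 2 rows. The set holds 2 glucose transporters, 3 hexokinases, 8 genes of upper glycolysis, 6 of lower glycolysis, 5 genes of lactate and pyruvate handling, 3 genes of the hypoxia-inducible factor (HIF) and its hydroxylases, and 6 other HIF target genes.

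The libraries came from wild type (WT) C57BL/6 mice and from mice lacking S1PR4 in every tissue (S1PR4-/-, line B6.129P2-S1pr4tm1Dgen/J, backcrossed at least 10 times to C57BL/6), with WT littermates as controls. The study used male and female mice of 8 to 12 weeks, and its methods do not say which sex gave which library. S1PR4 is a receptor for the lipid sphingosine-1-phosphate. All mice received in the hind footpad 20 µL of incomplete Freund's adjuvant emulsion with 50 µg of ovalbumin and 5 µg of lipopolysaccharide, so no unimmunized cells entered any comparison, and cells were sorted from the popliteal draining lymph node. T follicular helper (Tfh) cells (TCRβ+ CD4+ PD1+ CXCR5+) and non-Tfh CD4+ T cells (PD1- CXCR5-) were sorted on day 6. Germinal center (GC) B cells (B220+ GL7+ Fas+) and non-GC B cells (GL7- Fas-) were sorted on day 9. Each of the 8 groups had 6 libraries, except for 5 WT and 4 S1PR4-/- non-GC B libraries. T cells and B cells were taken on different days, so lineage and day of sort cannot be told apart.

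Glycolysis breaks glucose down to pyruvate in the cytosol, and lymphocytes that proliferate are known to lean on it for energy and for building blocks even where oxygen is present. Lactate dehydrogenase then converts pyruvate to lactate, which leaves through monocarboxylate transporters, whereas pyruvate dehydrogenase feeds pyruvate to the mitochondria. HIF-1α, the product of Hif1a, is marked for degradation by prolyl hydroxylases (the Egln genes) when oxygen is present. When stable it binds the letters ACGTG or GCGTG in hypoxia response elements and raises many of the genes below, among them the hydroxylase gene Egln3 itself.

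To show where these letters lie beside the members whose values follow, the RefSeq window from 250 bases before to 50 bases after each annotated start (build GRCm38.p6) was searched on both strands. Of the 33 members, 31 had a window and 28 had the core letters in at least 1 window, as did 46.7% of all 27025 genes in that table. By window, 36 of 45 member windows (80%) and 43.8% of all 32851 windows held ACGTG or GCGTG, and ACGTG alone was in 57.8% and 19.6%. A run of CACGTG holds ACGTG on each strand and was counted on each. The core was present in 17 of the 19 members called higher in Tfh cells and in 9 of the 10 matched members called higher in neither sorted population. Tpi1 and Gpi1, which were called higher in both lineages, had no core in their windows, so no sequence is shown for them. The members were chosen as genes of glycolysis and as HIF targets, whereas the shares of all genes cover the whole promoter table, expressed or not. The difference between these shares is therefore no test of hypoxia in these cells. A match describes these letters only, and binding was not measured. The ACGTG nearest to the start is shown in capitals for 8 members with large or opposite changes, with 8 bases on each side, read 5′ to 3′ on the strand that carries it; positions are those of the core base farthest upstream, counted along the gene's own strand from the start.
Hk2, chr6:82774494-82774514, + strand, position -52: ggacagtgACGTGgatgtgct
Pgam1, chr19:41911749-41911769, + strand, position -114: ccttgcttACGTGcgctccgt
Ldha, chr7:46845762-46845782, - strand, position -34: cccagcggACGTGcgggaacc
Slc16a3, chr11:120949045-120949065, + strand, position -14: cgcgggggACGTGccgcgcga
Hif1a, chr12:73907789-73907809, + strand, position -70: tgagagcaACGTGggctgggg
Egln3, chr12:54204091-54204111, - strand, position -229: catctcagACGTGagatccag
Bnip3, chr7:138909601-138909621, - strand, position -107: cgcgccgcACGTGccacacgc
Ddit4, chr10:59951945-59951965, - strand, position -187: cgttgcgaACGTGcgcccggt
The last 2 genes were called in opposite directions in T and B cells, as given under their values. Any link between the core and the direction of change was not tested.

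Each library held 26299429 to 45548215 counts. S1pr4 had 505 to 6305 counts in WT libraries and 0 to 40 in S1PR4-/- libraries. The summed level of 12 T cell marker genes was 7329 to 10001 CPM (counts per 1000000 scaled counts of the library) in T cell libraries and 66.4 to 202 CPM in B cell libraries, and that of 12 B cell markers was 7997 to 16675 CPM in B cells and 61.6 to 494 CPM in T cells. The labels do not say how many animals gave each library, and the study's methods name 6 mice per genotype. In bulk libraries, fewer cells of a type and less RNA per cell cannot be told apart.

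In Tfh cells 7 of 8 genes of upper and 4 of 6 genes of lower glycolysis were called higher than in non-Tfh cells, and in GC B cells 4 of 8 and 4 of 5 tested were called higher than in non-GC B cells. The glucose transporter Slc2a3 and the pyruvate dehydrogenase kinase Pdk1 were lower in both. In WT T cells, 19 of the 33 members tested were higher and 3 lower in Tfh cells (edgeR's quasi-likelihood test, Benjamini-Hochberg adjusted p below 0.05 and a fold above 1.5). Of all genes tested, 43.2 percent were called, 22.8 percent as higher and 20.4 percent as lower. The members' median log2 fold change was 0.84, and that of all genes was 0.00. The groups did not overlap for 21 of 33 members and for 48.5 percent of all genes. In WT B cells, 13 of 30 members were higher and 5 lower in GC B cells, against 47.8 percent of all genes called, 24.8 percent as higher and 23.1 percent as lower. Their median was 0.31, also beside 0.00 for all genes, and 19 of 30 did not overlap, against 50.8 percent of all genes. Together the members took 0.905% ± 0.0266 of all counts in non-Tfh and 1.92% ± 0.190 in Tfh cells (SD, n = 6 each). The corresponding shares were 0.522% ± 0.0145 in non-GC B (SD, n = 5) and 0.968% ± 0.0435 in GC B cells (SD, n = 6). The share was thus lowest in non-GC B cells and highest in Tfh cells, and the ranges of the sorted pairs did not overlap.

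**Figure D1:**
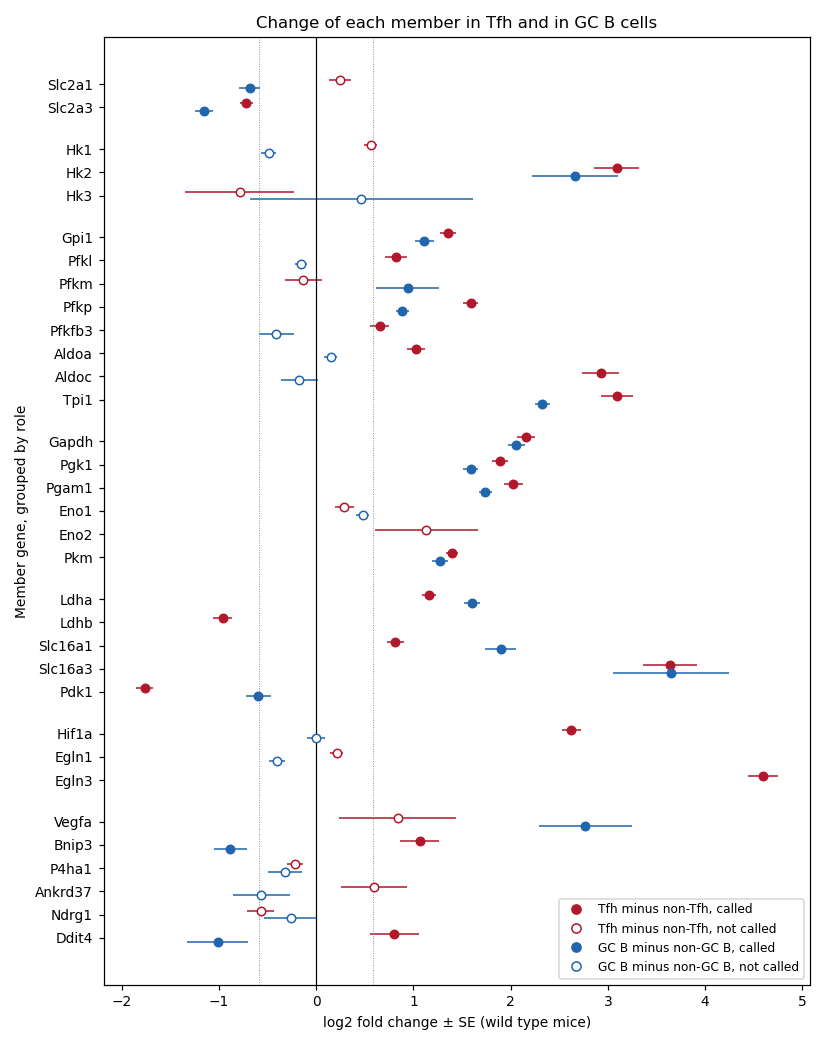
Log2 fold change with its standard error (x axis) of each member (y axis, grouped by role) for Tfh against non-Tfh (red) and GC B against non-GC B (blue) cells of WT mice; filled circles were called and dotted lines mark a fold of 1.5. The 11 genes called higher in both lie to the right in both colors, Hif1a lies at 2.63 in T cells and at 0.00 in B cells, and Bnip3 and Ddit4 lie on opposite sides of 0.

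Of the 30 members tested in both lineages, 11 were higher in both (36.7%, against 12.2% of all genes) and 2 were lower in both (6.67%, against 11.9%). The 11 were Hk2, Gpi1, Pfkp, Tpi1, Gapdh, Pgk1, Pgam1, Pkm, Ldha, Slc16a1 and Slc16a3. They lie along the path from glucose phosphorylation to lactate export, but no aldolase or enolase gene is among them. Pfkl, Pfkfb3, Aldoa, Aldoc and Hif1a were called higher in Tfh cells and were not called in B cells. Pfkm and Vegfa were called higher in GC B cells and were not called in T cells. The second Aldoa row held too few counts for any test, and Eno2, Ldhb and Egln3 too few for the test in B cells.

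The glucose transporters did not follow the enzymes. Slc2a3, which encodes the high-affinity transporter GLUT3, ran from 73.7 to 90.7 CPM (median 82.9) in WT non-Tfh and from 44.5 to 53.9 CPM (median 50.0) in WT Tfh cells. In the 5 WT non-GC B libraries it had 61.9, 68.2, 64.0, 56.4 and 60.3 CPM, and in GC B cells it ran from 22.9 to 32.5 CPM (median 26.2). Neither pair overlapped, and the log2 fold changes were -0.72 ± 0.066 (SE, adjusted p = 2.12e-07) and -1.15 ± 0.094 (SE, adjusted p = 3.77e-07) by edgeR's quasi-likelihood test. Slc2a1, which encodes the widely expressed GLUT1, was 1.60-fold lower in GC B cells, at 46.6 to 71.6 CPM against 91.4 to 116 CPM. In T cells its levels overlapped, at 65.8 to 81.5 CPM in non-Tfh and 71.7 to 117 CPM in Tfh cells, and the log2 fold change was 0.24 ± 0.11 (SE, edgeR adjusted p = 0.0715).

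Among the hexokinases, which phosphorylate glucose and so keep it in the cell, Hk2 rose from a low level in both lineages. It ran from 0.611 to 1.89 CPM (median 1.40) in non-Tfh and from 8.70 to 13.5 CPM (median 11.5) in Tfh cells. The non-GC B libraries had 3.12, 3.05, 0.814, 6.27 and 1.88 CPM, and the GC B libraries ran from 13.2 to 32.5 CPM (median 15.3). The sorted pairs did not overlap. Hk2 was 8.52-fold higher in Tfh cells (log2 3.09 ± 0.23, SE, edgeR adjusted p = 2.18e-08) and 6.32-fold higher in GC B cells (log2 2.66 ± 0.44, SE, edgeR adjusted p = 0.000156). Hk1, the constitutive isozyme bound to mitochondria, remained the main hexokinase by level. Per kilobase of exon, Hk2 was 0.440% of the 3 hexokinases in non-Tfh, 2.47% in Tfh, 2.31% in non-GC B and 16.5% in GC B cells. Hk1 had 232 to 281 CPM (median 276) in non-Tfh, 361 to 414 CPM (median 383) in Tfh, 97.9 to 126 CPM in non-GC B and 72.9 to 85.4 CPM (median 77.4) in GC B cells. It was higher in every Tfh library and lower in every GC B library than in the comparison population, but by less than 1.5-fold (log2 0.56 ± 0.063 and -0.49 ± 0.079, SE), and Hk3 stayed at or below 2.74 CPM in every WT library.

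Of the genes of upper glycolysis, Pfkm was the one not called in Tfh cells, whereas Gpi1, Pfkm, Pfkp and Tpi1 were the ones called in GC B cells. Tpi1 encodes triosephosphate isomerase, which interconverts the triose products of aldolase. Its level was 66.3 to 109 CPM (median 73.1) in non-Tfh and 531 to 892 CPM (median 635) in Tfh cells. It was 106, 99.1, 117, 106 and 110 CPM in the non-GC B libraries and 450 to 553 CPM (median 528) in GC B cells. Neither pair overlapped, with folds of 8.53 (log2 3.09 ± 0.16, SE, edgeR adjusted p = 6.21e-10) and 5.01 (log2 2.33 ± 0.077, SE, edgeR adjusted p = 6.21e-10). Aldoc, an aldolase isozyme best known from brain, had 4.07 to 7.17 CPM (median 5.05) in non-Tfh and 29.5 to 56.9 CPM (median 38.4) in Tfh cells, a 7.59-fold difference (edgeR adjusted p = 6.15e-09). In B cells Aldoc overlapped between the groups, with 22.1, 19.4, 21.7, 19.0 and 24.1 CPM in non-GC B and 11.6 to 26.4 CPM (median 17.3) in GC B cells. The main aldolase, Aldoa, had 586 to 692 CPM (median 645) in non-Tfh and 1122 to 1629 CPM (median 1185) in Tfh cells, a 2.04-fold difference without overlap. Its B cell levels overlapped, at 576 to 666 CPM in non-GC B and 600 to 696 CPM (median 663) in GC B cells (log2 0.15 ± 0.065, SE, edgeR adjusted p = 0.0579).

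Phosphofructokinase, the committed step of glycolysis, shifted toward its platelet isozyme Pfkp in both lineages. Per kilobase, Pfkp made up 52.8% ± 3.4 of the 3 isozymes in non-Tfh and 66.8% ± 2.6 in Tfh cells (SD, n = 6 each). It made up 42.0% ± 0.91 in non-GC B (SD, n = 5) and 59.3% ± 2.4 in GC B cells (SD, n = 6). These ranges did not overlap within a lineage. Pfkp itself was 3.01-fold higher in Tfh and 1.85-fold higher in GC B cells, while the liver isozyme Pfkl was 1.77-fold higher in Tfh and 1.12-fold lower in GC B cells, the latter below the fold limit. Pfkl ran from 169 to 214 CPM in non-Tfh, 261 to 419 CPM in Tfh, 186 to 219 CPM in non-GC B and 163 to 185 CPM in GC B cells. Pfkfb3, which makes the phosphofructokinase activator fructose-2,6-bisphosphate, was 1.57-fold higher in Tfh cells while its change in B cells was -0.41 ± 0.18 on the log2 scale (SE, edgeR adjusted p = 0.0608). Gpi1, glucose-6-phosphate isomerase, was 2.56-fold and 2.16-fold higher in Tfh and GC B cells.

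In lower glycolysis 4 genes rose past the fold limit in each lineage, and Eno1 was the main gene that stayed below it. Gapdh, glyceraldehyde-3-phosphate dehydrogenase and a common reference gene for RNA measurements, had 493 to 642 CPM (median 570) in non-Tfh and 2164 to 3019 CPM (median 2396) in Tfh cells. The non-GC B libraries had 509, 497, 582, 485 and 484 CPM, and the GC B libraries 1750 to 2256 CPM (median 2059). No sorted pair overlapped, and the folds were 4.45 in Tfh (log2 2.15 ± 0.094, SE, edgeR adjusted p = 1.25e-10) and 4.16 in GC B cells (log2 2.06 ± 0.090, SE, edgeR adjusted p = 2.74e-09). Under library scaling by total counts and by median ratios Gapdh stayed higher in both lineages, and it did so when the counts of its near-identical copies, mostly pseudogenes, were added. Pgam1, phosphoglycerate mutase, was 4.08-fold higher in Tfh cells, at 363 to 511 CPM against 87.5 to 119 CPM. It was 3.34-fold higher in GC B cells, at 346 to 428 CPM (median 394) against 121, 122, 122, 125 and 123 CPM in the non-GC B libraries. Pgk1, phosphoglycerate kinase, was 3.70-fold and 3.01-fold higher, and Pkm, pyruvate kinase, was 2.63-fold and 2.41-fold higher in Tfh and GC B cells. The 2 splice forms of Pkm cannot be told apart in a gene-level table.

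Eno1, enolase, had the highest mean level per kilobase of the members in WT non-GC B cells, at 501 ± 30 CPM per kb (SD, n = 5). In WT non-Tfh cells Eno1 had 783 ± 91 and Ldha 727 ± 43 CPM per kb, and in S1PR4-/- non-Tfh cells Ldha had 827 ± 148 and Eno1 795 ± 64 CPM per kb (SD, n = 6 each), so their order lay within the spread. Eno1 was 1.22-fold higher in Tfh and 1.39-fold higher in GC B cells, below the fold limit. Its B cell levels did not overlap, at 1159 to 1349 CPM in non-GC B and 1548 to 1797 CPM in GC B cells. Its T cell levels overlapped, at 1726 to 2248 CPM in non-Tfh and 2057 to 2964 CPM in Tfh cells. Per kilobase, Gapdh was highest in WT Tfh cells, at 1678 ± 223 CPM per kb (SD, n = 6), followed by Ldha at 1619 ± 188 CPM per kb. These 2 did not differ beyond their spread. In WT GC B cells Gapdh led with 1360 ± 115 CPM per kb and Ldha followed with 758 ± 60.0 CPM per kb. Eno2, the neuronal enolase, did not exceed 1.06 CPM in any WT library.

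**Figure D2:**
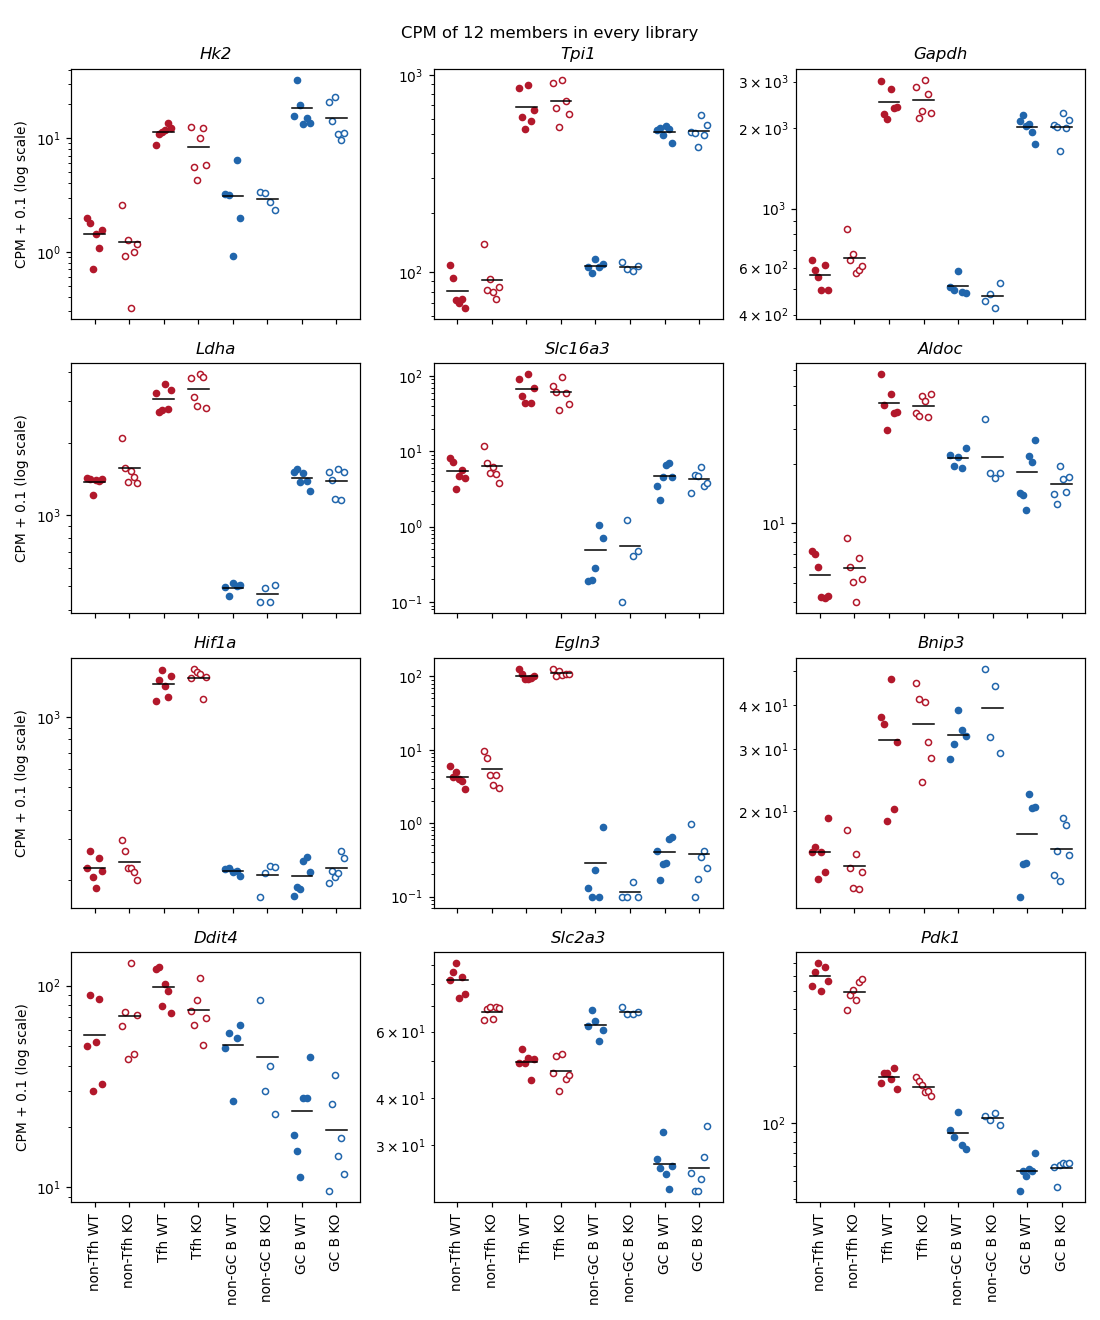
CPM plus 0.1 (log scale) of 12 members in every library, with T cells in red, B cells in blue, WT filled, S1PR4-/- open and a line at each group mean. Hk2, Tpi1, Gapdh, Ldha and Slc16a3 are higher in Tfh and in GC B cells than in their comparison populations, Aldoc, Hif1a and Egln3 step up in Tfh cells, and the genotypes overlap in every population shown apart from Slc2a3 in non-Tfh cells.

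The genes that send pyruvate to lactate and out of the cell rose with the glycolytic enzymes. Ldha, the lactate dehydrogenase subunit that dominates in glycolytic tissue, had 1215 to 1423 CPM (median 1409) in non-Tfh and 2697 to 3540 CPM (median 3030) in Tfh cells. It had 496, 454, 516, 501 and 506 CPM in non-GC B and 1266 to 1567 CPM (median 1445) in GC B cells. Neither pair overlapped, with folds of 2.23 (edgeR adjusted p = 4.35e-09) and 3.04 (edgeR adjusted p = 6.12e-09). Ldhb, the subunit that dominates in oxidative tissue, moved the other way in T cells, from 74.5 to 102 CPM in non-Tfh to 40.0 to 51.8 CPM in Tfh cells (log2 -0.96 ± 0.094, SE, edgeR adjusted p = 4.12e-07). Per kilobase its share of the Ldha and Ldhb total was 8.40% in non-Tfh and 2.09% in Tfh cells. In WT B cells Ldhb was at or near 0, with 0, 0, 0, 2.13 and 4.05 CPM in non-GC B and at most 0.108 CPM in GC B cells.

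Slc16a3, which encodes the lactate exporter MCT4, had the second largest fold in T cells. It ran from 3.09 to 8.09 CPM (median 5.04) in non-Tfh and from 43.4 to 104 CPM (median 62.3) in Tfh cells, a 12.4-fold difference (log2 3.63 ± 0.28, SE, edgeR adjusted p = 2.79e-08). The non-GC B libraries had 0.0899, 0.0983, 0.184, 0.952 and 0.604 CPM and the GC B libraries 2.13 to 6.82 CPM (median 4.43). The fitted difference in B cells was similar in size (log2 3.65 ± 0.59, SE, edgeR adjusted p = 0.000138), but it started from a few counts per library. Slc16a1, which encodes the transporter MCT1, was 1.76-fold higher in Tfh cells, at 82.6 to 115 CPM against 50.1 to 65.0 CPM. It was 3.73-fold higher in GC B cells, with 18.6, 21.6, 22.7, 15.4 and 18.2 CPM in non-GC B and 48.2 to 89.9 CPM (median 70.1) in GC B cells (log2 1.90 ± 0.16, SE, edgeR adjusted p = 4.51e-07). Per kilobase, Slc16a3 was 38.7% ± 9.1 of the 2 transporters in Tfh cells and 6.56% ± 2.9 in GC B cells (SD, n = 6 each).

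Pdk1, which inhibits pyruvate dehydrogenase and so limits pyruvate entry to the mitochondria, is a well known HIF target yet was lower in Tfh cells. It had 497 to 694 CPM (median 593) in non-Tfh and 152 to 194 CPM (median 178) in Tfh cells, a 3.40-fold difference without overlap (log2 -1.76 ± 0.090, SE, edgeR adjusted p = 5.25e-10). In B cells it had 92.7, 84.9, 115, 76.7 and 73.1 CPM in non-GC B and 43.9 to 70.0 CPM (median 56.1) in GC B cells. That 1.51-fold difference lay at the fold limit (edgeR adjusted p = 0.00132) and dropped below it when any of 6 of the 11 libraries was left out. The smallest of these log2 fold changes was -0.48.

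**Figure D3:**
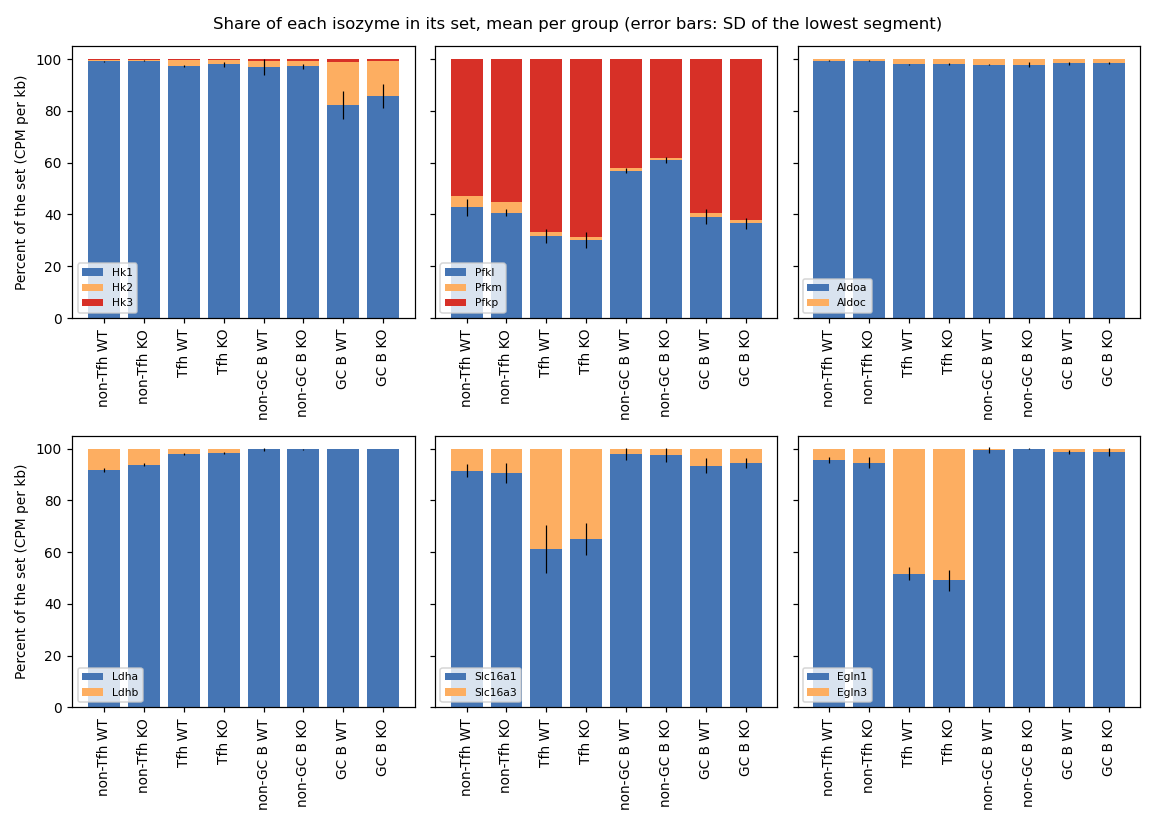
Share of each isozyme in its set (y axis, percent of the summed CPM per kb) for 6 sets in the 8 groups, as stacked means with the SD of the lowest segment. Pfkp grows at the expense of Pfkl in both lineages, Egln3 reaches 48.4% and Slc16a3 38.7% of their sets in WT Tfh cells, and Hk2 reaches 16.5% of its set in WT GC B cells.

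Hif1a and Egln3 were among the largest changes in Tfh cells and were not called in GC B cells, where Egln3 had too few counts to test. Hif1a (73901375 to 73947530, + strand) and Egln3 (54178981 to 54203860, - strand) both lie on mouse chromosome 12 (mm10, GENCODE M21). Hif1a had 185 to 265 CPM (median 221) in non-Tfh and 1170 to 1585 CPM (median 1403) in Tfh cells, a 6.17-fold difference (log2 2.63 ± 0.098, SE, edgeR adjusted p = 3.62e-11). In B cells it had 221, 224, 217, 217 and 207 CPM in non-GC B and 171 to 250 CPM (median 201) in GC B cells. The T cell groups were far apart and the B cell groups overlapped. Egln3, the inducible prolyl hydroxylase, had 2.86 to 5.87 CPM (median 4.05) in non-Tfh and 91.7 to 124 CPM (median 98.5) in Tfh cells. This 24.2-fold difference was the largest of the members (log2 4.60 ± 0.15, SE, edgeR adjusted p = 1.66e-11). Egln3 did not exceed 0.782 CPM in any WT B cell library.

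Egln1, the main oxygen-sensing hydroxylase, changed little beside Egln3, with log2 fold changes of 0.21 ± 0.066 in T cells and -0.40 ± 0.087 in B cells (SE), both within 1.5-fold. Egln3 went from 4.30% ± 1.1 of the summed Egln1 and Egln3 level per kilobase in non-Tfh to 48.4% ± 2.6 in Tfh cells (SD, n = 6 each). These are transcript levels. HIF-1α protein, which is regulated mainly by degradation, was not measured.

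Of the 6 other HIF targets, 2 were called in opposite directions in the lineages. Bnip3, a mitochondrial protein that promotes mitophagy, had 12.7 to 19.0 CPM (median 15.2) in non-Tfh and 18.6 to 47.5 CPM (median 33.3) in Tfh cells. In B cells it had 28.0, 30.8, 38.8, 34.0 and 32.7 CPM in non-GC B and 11.3 to 22.3 CPM (median 17.2) in GC B cells. The T cell groups overlapped slightly and the B cell groups did not, with log2 fold changes of 1.06 ± 0.20 (SE, edgeR adjusted p = 0.000273) and -0.88 ± 0.17 (SE, edgeR adjusted p = 0.000502). Ddit4, also called REDD1, an inhibitor of mTORC1 that stress induces, had 29.8 to 89.7 CPM (median 51.2) in non-Tfh and 73.4 to 123 CPM (median 97.9) in Tfh cells. It had 48.8, 57.9, 26.6, 54.7 and 64.0 CPM in non-GC B and 11.2 to 43.9 CPM (median 22.9) in GC B cells. Both pairs overlapped, with log2 fold changes of 0.80 ± 0.25 (SE, edgeR adjusted p = 0.0112) and -1.01 ± 0.31 (SE, edgeR adjusted p = 0.0118).

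The remaining HIF targets were mostly not called. Vegfa, the endothelial growth factor, was called higher in GC B cells from very low levels, with 0.390, 0.459, 0.657, 0.296 and 0.462 CPM in non-GC B and 0.540 to 4.40 CPM (median 3.19) in GC B cells, and the groups overlapped. P4ha1, a subunit of the hydroxylase that matures collagen, Ndrg1, a stress-responsive gene, and Ankrd37 were not called in either lineage. Their log2 fold changes were -0.22, -0.57 and 0.59 in T cells and -0.32, -0.26 and -0.57 in B cells. Of these 6 HIF targets, 2 were called higher in Tfh cells, and 1 higher and 2 lower in GC B cells. Over all genes, 22.8 percent were higher in Tfh cells, and 24.8 percent were higher and 23.1 percent lower in GC B cells.

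The question whether the change from the comparison population differed between the lineages was tested directly, as the GC B minus non-GC B difference less the Tfh minus non-Tfh difference in WT mice. At an adjusted p below 0.05, 22 of 33 members differed, against 41.7 percent of all genes. For 18 of them the T cell change was the higher one (21.4 percent of all genes) and for 4 the B cell change was (20.3 percent). Hif1a differed by -2.69 ± 0.14 on the log2 scale (SE, edgeR adjusted p = 2.82e-12) and Aldoc by -3.16 ± 0.29 (SE, edgeR adjusted p = 8.39e-09). Hk1 differed by -1.11 ± 0.10, Pfkl by -1.04 ± 0.14, Aldoa by -0.94 ± 0.12 and Pfkp by -0.77 ± 0.10 (SE). The other direction was found for Pdk1 at 1.11, Slc16a1 at 1.02, Pfkm at 1.00 and Ldha at 0.38. No difference was called for Hk2 (-0.50 ± 0.48), Gapdh (-0.16 ± 0.13), Pkm (-0.19 ± 0.10), Gpi1 (-0.31 ± 0.13), Eno1 (0.13 ± 0.13) or Slc16a3 (-0.03 ± 1.1, SE).

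Set side by side, GC B cells had lower levels of 21 of 33 members than Tfh cells and higher levels of 2, against 44.3 percent of all genes called, 24.2 percent as lower and 20.1 percent as higher. The 2 were Hk2, with a log2 difference of 0.69 ± 0.21 (SE, edgeR adjusted p = 0.00954), and Ankrd37, with 1.23 ± 0.33 (SE, edgeR adjusted p = 0.00454). Both overlapped between the groups. Gapdh, Pgam1, Tpi1 and Gpi1 were within 1.5-fold between GC B and Tfh cells. In the comparison populations, 12 of 33 members were lower and 5 higher in non-GC B than in non-Tfh cells, against 38.9 percent of all genes, 19.1 percent as lower and 19.7 percent as higher. Hif1a, Gapdh and Aldoa differed by log2 0.02 ± 0.082, -0.08 ± 0.083 and 0.01 ± 0.065 (SE) between these 2 populations. Aldoc was higher in non-GC B cells by 2.04 ± 0.18 and Bnip3 by 1.18 ± 0.12, whereas Ldha was lower by -1.42 ± 0.063 (log2, SE).

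Summed levels of marker genes of other cell types moved with some of these comparisons, and single genes carried much of some sums. The summed level of 8 plasma cell markers was 513 to 861 CPM in WT non-GC B and 4043 to 8886 CPM in WT GC B cells, with none of the 8 at 0 in every library of a group. Jchain, which went from 84.6 to 3069 CPM on average, made up most of this rise. Irf4 alone fell, from 89.3 to 73.5 CPM on average. The summed level of 10 myeloid markers was 12.6 to 44.1 CPM in non-Tfh and 37.2 to 96.3 CPM in Tfh cells, and 15.2 to 59.7 CPM in non-GC B and 46.4 to 224 CPM in GC B cells. In Tfh cells Lyz2 went from 13.3 to 33.7 and Cd68 from 1.07 to 17.1 CPM on average. Itgam fell there from 8.17 to 5.94 CPM, and S100a8 and S100a9 stayed near 0. For 12 B cell markers the sum was 65.5 to 108 CPM in non-Tfh and 183 to 494 CPM in Tfh cells. Most of this rise was Cd22, which went from 8.17 to 179 CPM on average. Cd72 alone fell, from 51.7 to 17.8 CPM on average. The 5 genes of naive or resting lymphocytes summed to 5929 to 6595 CPM in non-Tfh and 1121 to 1354 CPM in Tfh cells, and to 3110 to 3551 CPM in non-GC B and 299 to 1475 CPM in GC B cells. WT GC B replicate 6 had both the highest resting and the highest myeloid sum of its group. The part of these cells or states in the members' values was not tested.

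The genotype comparison asked whether loss of S1PR4 changed these genes in each sorted population, and no member was called in any of the 4. In Tfh cells 0 of 33 members were called, against 0.496 percent of all genes, and 4 had an unadjusted p below 0.05, against 19.2 percent of all genes. In non-Tfh cells 0 of 33 were called (0.114 percent of all genes) and 6 had an unadjusted p below 0.05 (11.3 percent). In GC B cells 0 of 30 were called (0.0612 percent) and 2 had an unadjusted p below 0.05 (4.13 percent), and in non-GC B cells 0 of 31 (0.0537 percent) and 3 (4.55 percent). limma-voom also called none, and DESeq2 called none in 3 populations and 1 in non-GC B cells. The data bounded most members: the 95% interval of the genotype difference lay within 1.5-fold in either direction for 22 of 33 members in Tfh, 25 of 33 in non-Tfh, 21 of 30 in GC B and 19 of 31 in non-GC B cells. For Hif1a in Tfh cells the interval ran from -0.09 to 0.27 on the log2 scale, and for Gapdh from -0.18 to 0.23. The 11 members whose interval reached past 1.5-fold in Tfh cells had mean levels from 0.645 CPM (Hk3) to 87.0 CPM (Ddit4), and for them a change of that size lay inside the interval.

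**Figure D4:**
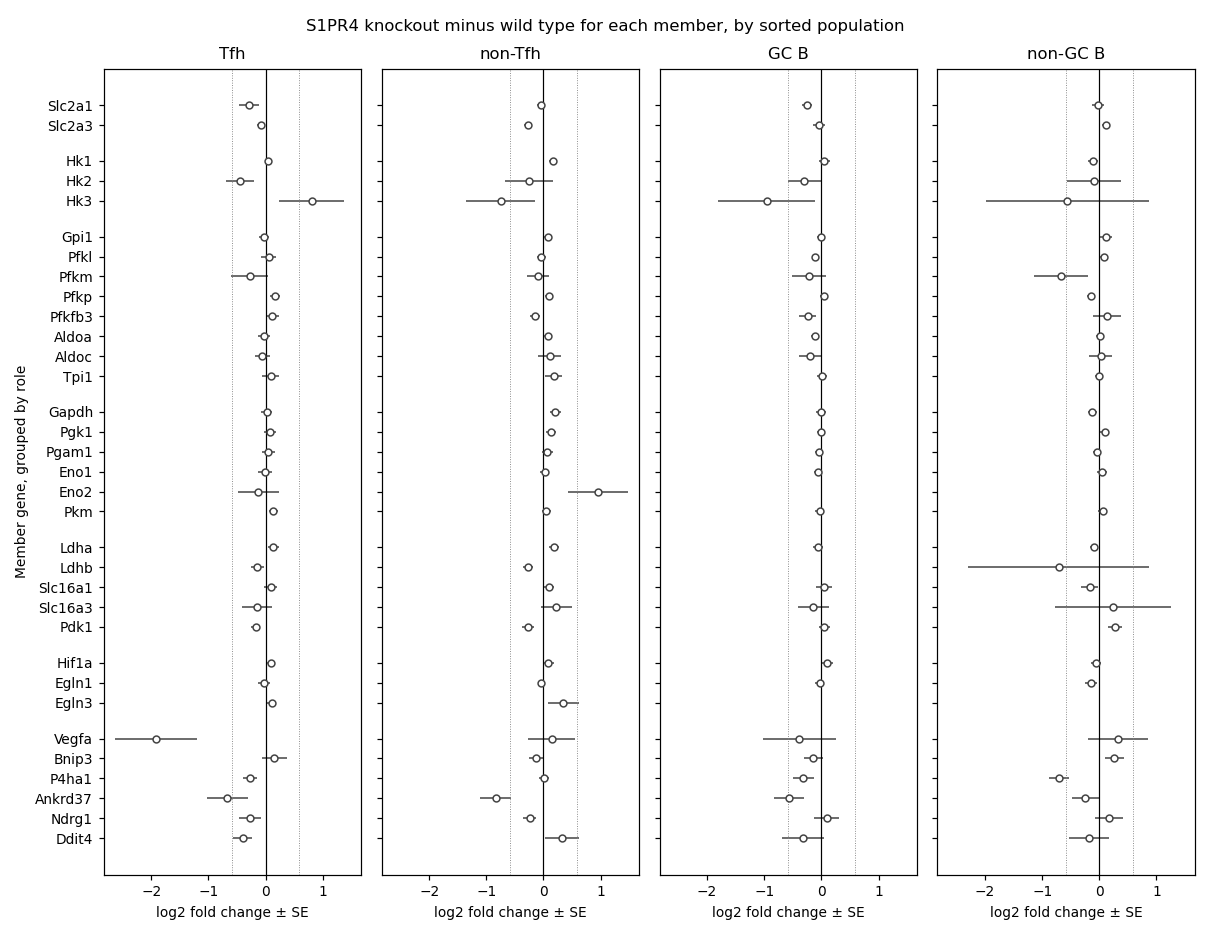
Log2 fold change with its standard error (x axis) of each member (y axis, grouped by role) between S1PR4-/- and WT cells, in a panel for each sorted population; dotted lines mark a fold of 1.5. No member was called, most lie near 0, and the widest bars belong to genes with few counts such as Hk3 and Ldhb.

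The 2 members with the lowest unadjusted p in each population had log2 differences from -1.91 to -0.15, and none passed the adjusted threshold. Slc2a3 in non-Tfh cells had 73.7 to 90.7 CPM (median 82.9) in WT and 64.4 to 69.7 CPM (median 68.8) in S1PR4-/- cells. The groups did not overlap, as was the case for 1.17 percent of all genes, and the log2 difference was -0.28 ± 0.060 (SE, edgeR adjusted p = 0.0806). P4ha1 in non-GC B cells had 19.6, 21.6, 28.2, 19.8 and 32.8 CPM in WT and 14.9, 16.1, 14.4 and 14.4 CPM in S1PR4-/- cells. These groups did not overlap either (1.79 percent of all genes), and the log2 difference was -0.71 ± 0.17 (SE, edgeR adjusted p = 0.798). DESeq2 gave it an adjusted p of 0.0406 at the same size. Vegfa in Tfh cells was at 0.261 to 3.91 CPM in WT and 0 to 0.862 CPM in S1PR4-/- cells, with overlap (edgeR adjusted p = 0.163).

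The others named by their rank were Pdk1 in Tfh cells (log2 -0.18, edgeR adjusted p = 0.199), Ldhb in non-Tfh cells (-0.27, 0.224), Slc2a1 and Ankrd37 in GC B cells (-0.25 and -0.56, both 0.985) and Pfkp in non-GC B cells (-0.15, 0.981). Pfkp did not overlap between the genotypes, at 165, 167, 177, 179 and 165 CPM in WT and 150, 140, 165 and 158 CPM in S1PR4-/- libraries. The same held for 1.79 percent of all genes. The gap was narrow, with 164.6 CPM in the highest S1PR4-/- and 165.0 CPM in the lowest WT library. The B cell marker sum was 183 to 494 CPM in WT and 162 to 291 CPM in S1PR4-/- Tfh cells, of which Cd22 gave 179 and 194 CPM on average. In 1 S1PR4-/- Tfh library the myeloid marker sum was 455 CPM, and in 1 S1PR4-/- GC B library the plasma cell marker sum was 17946 CPM. Leaving out any single library kept the count of members called between the genotypes at 0 in each population.

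The shifts were also read in S1PR4-/- mice, whose libraries are separate from those above. Tfh cells had 19 members higher and 3 lower of 33, against 43.4 percent of all genes called (22.3 percent higher, 21.1 percent lower). GC B cells had 13 higher and 7 lower of 30, against 48.2 percent (25.3 percent higher, 22.9 percent lower). Of the WT calls, 90.9% in T cells and 100% in B cells were called the same way in S1PR4-/- cells, against 87.0% and 86.7% of the calls over all genes. Of the 3 members lower in WT Tfh cells, 2 were called again. Slc2a3 was below the fold limit, at 64.4 to 69.7 CPM in S1PR4-/- non-Tfh and 41.7 to 52.3 CPM in S1PR4-/- Tfh cells, without overlap. Egln3 changed by log2 4.38 ± 0.25, Hif1a by 2.65 ± 0.099 and Tpi1 by 3.03 ± 0.17 in S1PR4-/- T cells (SE). In S1PR4-/- B cells Tpi1 changed by 2.35 ± 0.11, Gapdh by 2.17 ± 0.11 and Hif1a by 0.15 ± 0.11 (SE, edgeR adjusted p = 0.245 for the last).

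Bnip3 was again higher in Tfh cells (1.37 ± 0.15) and lower in GC B cells (-1.28 ± 0.18, log2, SE). Ddit4 was lower in S1PR4-/- GC B cells (-1.16 ± 0.42) and had a log2 fold change of 0.10 ± 0.24 in S1PR4-/- T cells (SE, edgeR adjusted p = 0.732). The test of whether the T cell shift differed between genotypes gave -0.72 ± 0.38 for Ddit4 (SE, edgeR adjusted p = 0.572). That test called 0 of 33 members in T cells, against 0.0139 percent of all genes, with 2 members at an unadjusted p below 0.05 (9.2 percent of all genes). In B cells it called 0 of 33, against 0 percent of all genes, with 1 member at an unadjusted p below 0.05 (4.58 percent).

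Genes of the same pathways outside the 33 were read from 8 lists of 65 genes. In WT Tfh cells 17 of the 56 tested were higher and 10 lower, near the 22.8 and 20.4 percent of all genes, with a median log2 fold change of 0.20. In WT GC B cells 16 of 53 were higher and 13 lower, near the 24.8 and 23.1 percent of all genes, with a median of 0.05. These shares stand beside each list count that follows. Of 4 other glycolytic isozymes tested, 1 was higher and 1 lower in Tfh cells, and 2 were higher and 1 lower in GC B cells. Pgam2 was higher in both (3.60 and 3.08) and Bpgm, which makes 2,3-bisphosphoglycerate, was higher in GC B cells (1.69). The lowest log2 fold change of these 4 was -0.81 in Tfh and -1.17 in GC B cells. Of 4 other enzymes that set or lower fructose-2,6-bisphosphate, 1 was higher and 2 were lower in each lineage. Pfkfb2 was lower in Tfh (-1.19) and in GC B cells (-2.09), as was Pfkfb4 (-0.76 and -2.10). The highest log2 fold change of these 4 was 0.68 in Tfh and 1.34 in GC B cells.

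The genes of pyruvate entry to mitochondria moved both ways, with 1 higher and 2 lower of 11 in Tfh and 3 higher and 2 lower of 11 in GC B cells, against 43.2 and 47.8 percent of all genes called. Within it, the kinase genes of the family of Pdk1 diverged, Pdk2 being lower in both lineages (-2.18 and -2.17) and Pdk3 higher in both (1.41 and 1.73). In the pentose phosphate pathway 2 of 7 genes were higher in Tfh cells (22.8 percent of all genes), and 3 of 7 were higher (24.8 percent) and 1 lower (23.1 percent) in GC B cells, where transketolase Tkt changed by 1.13 and Pgd by 0.91. Of the other sugar and lactate transporters and their chaperones, Slc2a6 was 4.91 higher in Tfh cells and Slc16a7 was lower in GC B cells (-3.79), while Emb, a chaperone of monocarboxylate transporters, was higher there (1.88). All values in this paragraph are log2 fold changes in WT cells.

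Of 6 further genes of the HIF machinery, 1 was higher and 1 lower in Tfh cells and none of 5 tested was called in GC B cells. The lower one was Epas1, which encodes HIF-2α (log2 -1.08 ± 0.24, SE). The highest log2 fold change of these 6 genes in Tfh cells was 2.34. Of the further HIF target genes, 7 of 16 were higher and 3 lower in Tfh cells (22.8 and 20.4 percent of all genes), led by the adenylate kinase Ak4 (5.18), the repressor Bhlhe40 (3.24) and the lysyl hydroxylase Plod2 (3.18). In GC B cells 5 of 15 were higher and 5 lower (24.8 and 23.1 percent). Mif, a cytokine, was higher in both (1.26 and 1.24), and Adm, adrenomedullin, was lower in GC B cells (-2.01). Txnip, an arrestin that glucose induces and that restrains glucose uptake, was lower in Tfh (-1.75 ± 0.22) and in GC B cells (-1.54 ± 0.18, log2, SE).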

How the data were processed

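The members and the lists were chosen with earlier results of these data known. Per the labels and methods, reads were trimmed with cutadapt 2.10, aligned to mm10 with STAR 2.5.3 and quantified with RSEM 1.3.0 against a GENCODE annotation, and the authors deposited a table of expected counts for 45 libraries. 8.83% of its values were not whole, and they were rounded. Reads that fit several loci are shared out by RSEM's estimate, and 12 members have near-identical copies (at least 20% of the copy's 31-base words), so their counts are less certain. The authors' DESeq2 results were not used here.

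Each comparison of 2 groups was fitted on its own libraries with edgeR 4.0.16 (filterByExpr with a minimum count of 10, TMM, quasi-likelihood test) and p-values were adjusted over all genes by Benjamini-Hochberg. A gene was called at an adjusted p below 0.05 and a fold above 1.5, and tests of a difference between effects used the adjusted p alone. SEs derive from the F statistic. CPM were scaled by TMM over all libraries. Lengths are exon unions of the basic set of GENCODE M21, on which all values per kilobase rest. The methods name a later release, but the table's 55450 rows equal the genes of M21 in number and 55423 match its symbols. p-values measure the spread between libraries.

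Values by library are given for the 6 members with the largest called change in each WT lineage (at least 10 CPM, no overlap), those called in opposite directions, the 2 with the lowest p per genotype comparison and the 6 with the lowest p between lineages. Others were added by role. At most 3 called genes with the largest change were named per pathway list. Alternatives were median-ratio (RLE) scaling, total counts, DESeq2 1.42.0, limma-voom 3.58.1, no count filter, all groups fitted together, a replicate block, the adjusted p alone, and leaving out each library. Adding the copies' counts was chosen after seeing the data. The scripts were tested on simulated data. Replicate numbers paired libraries by the rule that every same-number correlation exceeds 0.1 between Tfh and non-Tfh S1PR4-/- cells (lowest 0.144, 6 of 6 pairs), where the block changed no count of calls by over 1.5 times.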

Additional observations from a re-analysis of the deposited data

Results flagged for a closer look

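In 3 of the 67 combinations of a member and a group that were searched, 1 library lay far from the others by Dixon's test, and chance alone gives such a library in about 1 group of 20. Hk2 was 32.5 CPM in WT GC B replicate 2, where the next library had 19.4 CPM. Gapdh was 582 CPM in WT non-GC B replicate 3, where the next had 509 CPM. Pfkl was 214 CPM in WT non-Tfh replicate 4, where the next had 181 CPM. All 3 genes kept their call when that library was left out.

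Pfkl was also among 22 members that changed differently in WT B cells and WT T cells by the test of the difference (GC B minus non-GC B, less Tfh minus non-Tfh, on the log2 scale, edgeR). The difference was negative, with the T cell change the higher one, for Egln3 (-3.85), Aldoc (-3.16), Ldhb (-3.12), Hif1a (-2.69), Bnip3 (-2.01), Ddit4 (-1.88), Ankrd37 (-1.22), Pfkfb3 (-1.12), Hk1 (-1.11) and Pfkl (-1.04). It was also negative for Slc2a1 (-0.99), Aldoa (-0.94), Tpi1 (-0.83), Pfkp (-0.77), Egln1 (-0.68), Slc2a3 (-0.50), Pgk1 (-0.36) and Pgam1 (-0.35). It was positive for Slc16a1 (1.02), Pdk1 (1.11), Pfkm (1.00) and Ldha (0.38). The values of Egln3 and Ldhb rest on B cell libraries with few or no counts of these genes.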

How the results depend on the processing

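The counts of members called stayed within 1.5 times of those reported under each alternative run, apart from S1PR4-/- against WT non-GC B cells, where DESeq2 called 1 member (P4ha1, adjusted p = 0.0406) and edgeR 0. Without each library in turn, the count was 22 to 25 in WT Tfh against non-Tfh, 16 to 18 in WT and 17 to 19 in S1PR4-/- GC B against non-GC B, 16 to 18 in non-GC B against non-Tfh and 19 to 22 in the difference between lineages. It remained 0 between genotypes and in the B cell interaction. Over 70 results for single genes, the B minus T difference of Ldhb turned from -3.12 to 0.11 with limma-voom and to 0.58 with the copies' counts added, and Ldhb was at or near 0 in B cells. Calls were also lost for Pdk1 in GC B cells with RLE or DESeq2 (-0.58), Ldhb in Tfh cells with all groups fitted together (adjusted p = 0.0506), Pfkm in GC B cells without non-GC B replicate 1, Pfkm's lineage difference without non-GC B replicate 1 or 3 (lowest 0.85) or with all groups fitted together (1.00), Egln3's without non-GC B replicate 5 (-1.96) and Ankrd37's under 4 settings (adjusted p 0.0505 to 0.0578) and without any of 4 libraries. The causes were not tested. Total-count scaling moved the median of all genes to -0.14 between non-GC B and non-Tfh cells, with 4 members higher and 15 lower there.

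With the replicate block, 22 members were called in WT T cells and 19 in WT B cells, against 22 and 18 without it. The same-number correlation between WT Tfh and non-Tfh libraries was 0.177 on average (lowest 0.0836), and between WT GC B and non-GC B libraries 0.0922. Between genotypes the block called no member either, but equal numbers there belong to different animals, so that run does not test a pairing.

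Genes with few counts, such as Hk3, Eno2 and Vegfa, had wide intervals at this depth.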
